A study of Homo sapiens with 3 samples.

Results

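The 10 genes described here encode RNA-binding regulators of alternative splicing outside the hnRNP and SR families: RBFOX2, QKI, MBNL1, MBNL2, CELF1, MSI2, ELAVL1, KHDRBS1, NOVA2 and TRA2A. They were chosen by name, with earlier results of these data known. Every MATR3 cluster that the deposited tables assign to one of these names was taken. They held 1033 of the 388807 clusters in the series, with 377 in replicate 1, 346 in replicate 2 and 310 in replicate 3, and they were 10 of 13557 gene names with a cluster in any replicate.

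The clusters come from PAR-CLIP, in which RNA is crosslinked to protein through a photoreactive uridine analog, pulled down with an antibody, here one against MATR3 (matrin 3, a nuclear RNA-binding protein), and sequenced. Crosslinked uridines read as T-to-C changes, and a cluster is a stretch of overlapping reads that carries such changes. The cells were HEK293, a line of human embryonic kidney origin, of wild-type genotype and without treatment, in 3 biological replicates that form 1 group with no control library. RNA levels were not analysed here, so more RNA of a gene and more MATR3 per RNA molecule cannot be told apart, and the kidney label could not be checked against marker genes.

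Splicing regulators of this kind bind short sequence motifs in introns and exons and raise or lower the use of nearby alternative exons. Several are known for cell-type programmes: RBFOX2, QKI and the muscleblind proteins MBNL1 and MBNL2 in muscle, brain and the epithelial to mesenchymal transition, and NOVA2 in neurons. CELF1 acts against the muscleblind proteins on many exons, while ELAVL1, KHDRBS1 and TRA2A are broadly expressed. MATR3 itself represses many exons from intronic, pyrimidine-rich sites, and AUCUU is its known motif.

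Replicates 1, 2 and 3 held 133088, 131679 and 124040 clusters with 1649124, 1506682 and 1532602 reads. In each library the median cluster rested on 3 distinct reads, and no deposited cluster had fewer than 4 reads. Of the 1033 clusters in the regulator genes, 364 (35.2%) rested on at most 2 distinct reads, against 34.1% in all other genes. With so few molecules behind a site, its absence from a replicate means only that it was not detected there.

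Sites that recurred between replicates are shown first, 1 or 2 for each gene with an intronic one. Part of each stretch, not all of it, was covered in more than 1 library. Sites that overlap an annotated UTR were not printed. A locus is the merged stretch of a gene's overlapping clusters on its strand. Positions are on hg38, and each sequence runs 5′ to 3′ on the gene's strand with T for U. Capitals mark the bases covered in all replicates of the locus. At the CELF1 and TRA2A loci printed here no base was covered in all 3 replicates. There capitals mark the bases covered in at least 2, which were 47 of 242 nt in CELF1 and 49 of 200 nt in TRA2A. The loci of MBNL1, CELF1, KHDRBS1 and TRA2A held clusters of 3 replicates, and those of RBFOX2, QKI, MSI2 and ELAVL1 of 2. The latter 4 were picked after their values were seen, as the intronic 2-replicate locus with the most reads in the gene.
RBFOX2 intron 5: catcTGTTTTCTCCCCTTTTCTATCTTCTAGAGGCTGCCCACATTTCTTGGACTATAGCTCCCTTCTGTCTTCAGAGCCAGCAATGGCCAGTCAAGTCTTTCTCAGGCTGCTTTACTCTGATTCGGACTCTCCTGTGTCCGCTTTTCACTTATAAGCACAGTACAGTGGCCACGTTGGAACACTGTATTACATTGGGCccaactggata
QKI intron 2: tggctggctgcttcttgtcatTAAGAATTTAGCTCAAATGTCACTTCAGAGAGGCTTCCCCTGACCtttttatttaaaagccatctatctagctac
MBNL1 intron 6: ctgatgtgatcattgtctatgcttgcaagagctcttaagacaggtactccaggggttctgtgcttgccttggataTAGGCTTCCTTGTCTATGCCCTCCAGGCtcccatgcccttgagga
MBNL1 intron 2: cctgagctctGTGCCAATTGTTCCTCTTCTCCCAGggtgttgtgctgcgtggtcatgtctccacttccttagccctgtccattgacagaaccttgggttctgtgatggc
CELF1 intron 3: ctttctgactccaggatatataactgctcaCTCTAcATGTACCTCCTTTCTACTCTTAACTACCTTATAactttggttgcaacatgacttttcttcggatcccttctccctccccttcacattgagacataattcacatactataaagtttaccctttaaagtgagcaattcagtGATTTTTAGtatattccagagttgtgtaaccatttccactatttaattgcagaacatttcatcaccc
MSI2 intron 5: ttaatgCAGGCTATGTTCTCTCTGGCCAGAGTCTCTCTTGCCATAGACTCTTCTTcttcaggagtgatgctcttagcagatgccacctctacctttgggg
ELAVL1 intron 2: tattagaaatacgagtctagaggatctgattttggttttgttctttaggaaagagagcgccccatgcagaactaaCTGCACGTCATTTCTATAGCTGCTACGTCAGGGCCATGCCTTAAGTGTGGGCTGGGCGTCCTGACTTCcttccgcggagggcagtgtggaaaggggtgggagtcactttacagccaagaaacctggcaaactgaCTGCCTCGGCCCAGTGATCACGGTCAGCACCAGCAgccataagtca
KHDRBS1 intron 1: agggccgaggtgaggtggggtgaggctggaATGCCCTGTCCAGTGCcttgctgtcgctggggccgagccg
TRA2A intron 1: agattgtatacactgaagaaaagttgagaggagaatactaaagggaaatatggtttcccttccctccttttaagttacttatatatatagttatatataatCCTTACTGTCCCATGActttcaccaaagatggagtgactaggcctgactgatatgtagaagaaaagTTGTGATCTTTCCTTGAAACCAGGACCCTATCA

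In the order printed, these stretches lie at chr22:35771213-35771421 (minus strand), chr6:163456135-163456230 (plus), chr3:152452501-152452620 (plus), chr3:152338260-152338368 (plus), chr11:47495448-47495689 (minus), chr17:57269458-57269557 (plus), chr19:7982935-7983189 (minus), chr1:32014826-32014895 (plus) and chr7:23527171-23527370 (minus). All 9 lie in introns of the GENCODE release 44 canonical transcript. Measured from the edges of the whole locus, the nearest annotated exon of any transcript of the gene was between 424 and 3811 nt away. Pyrimidines made up 62.2% of the RBFOX2 stretch, 63.3% of the MBNL1 intron 2 stretch and 62.8% of the CELF1 stretch. They made up 47.8% of the ELAVL1 stretch, 48.5% of the TRA2A stretch and 42.9% of the KHDRBS1 stretch, which has a GC content of 70.0%. ATCTT, the DNA form of AUCUU, occurred in the RBFOX2 stretch at base 23 and in the TRA2A stretch at base 173, counted from the first base printed, and in none of the other 7. Only the gene's own strand was searched.

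Clusters were found in every replicate in 9 of the 10 genes, NOVA2 being the exception. The same held for 38.9% of all protein-coding genes and for 52.8% of those at least as long as the shortest of the 10. Because the genes were chosen with earlier results of these data known, the count is not read as a result about them. Read numbers are given as normalised reads: the reads of a gene's clusters, scaled so that all clusters with a gene name sum to 1000000 in the replicate. The 10 genes together had 3091, 3217 and 2694 normalised reads in replicates 1, 2 and 3. Levels were compared between genes only per length, as clusters per 10 kb or normalised reads per kb of gene.

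RBFOX2 had 628, 643 and 500 normalised reads in replicates 1, 2 and 3, MSI2 had 450, 644 and 475, CELF1 had 764, 750 and 567, and ELAVL1 had 380, 398 and 539. QKI had 318, 241 and 207, KHDRBS1 had 245, 226 and 112, MBNL1 had 173, 220 and 143, and TRA2A had 116, 83.6 and 130. Replicate 3 was the lowest in RBFOX2, CELF1, QKI, KHDRBS1 and MBNL1 and the highest in ELAVL1, TRA2A and MBNL2, so that no library was high in all genes. MBNL2 had 16.6, 8.28 and 19.1, and NOVA2 had 0, 3.76 and 3.68.

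**Figure D1:**
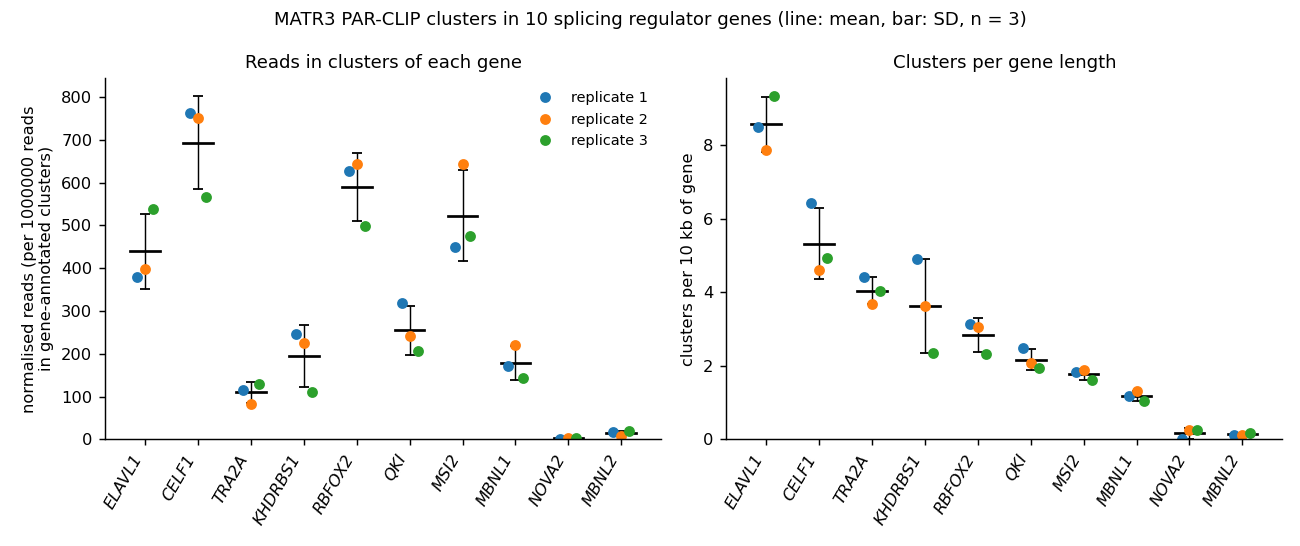
Normalised reads (left) and clusters per 10 kb of gene (right) for each of the 10 genes, ordered by mean cluster density. Points are the 3 replicates, lines the mean and bars the SD; ELAVL1 leads by density (mean 8.57 clusters per 10 kb), and NOVA2 and MBNL2 lie near 0 on both scales.

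Per length ELAVL1 was the highest of the 10 genes. It had 8.49, 7.86 and 9.34 clusters per 10 kb in replicates 1, 2 and 3 and stood at the 94.2 percentile of the 7795 protein-coding genes with clusters in every replicate, whose median was 2.01. CELF1 followed with 6.42, 4.62 and 4.92 (percentile 83.4), and its range did not overlap that of ELAVL1. TRA2A had 4.40, 3.67 and 4.03, KHDRBS1 had 4.90, 3.62 and 2.34, and RBFOX2 had 3.14, 3.07 and 2.31. QKI had 2.49, 2.07 and 1.94, and neighbours from TRA2A down to QKI overlapped in range. MSI2, the longest of the genes at 428.8 kb, had 1.82, 1.89 and 1.61, and MBNL1 had 1.17, 1.31 and 1.04 (percentile 33.0). Each of these ranges lay apart from its neighbours. NOVA2, with 0, 0.248 and 0.248, and MBNL2, with 0.116, 0.116 and 0.174, overlapped each other and lay below the other genes. By normalised reads per kb of gene the order was the same but for KHDRBS1 and TRA2A, at 4.14 ± 1.53 and 4.02 ± 0.866 (SD, n = 3), and for MBNL2 and NOVA2, at 0.0849 ± 0.0328 and 0.0616 ± 0.0533.

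**Figure D2:**
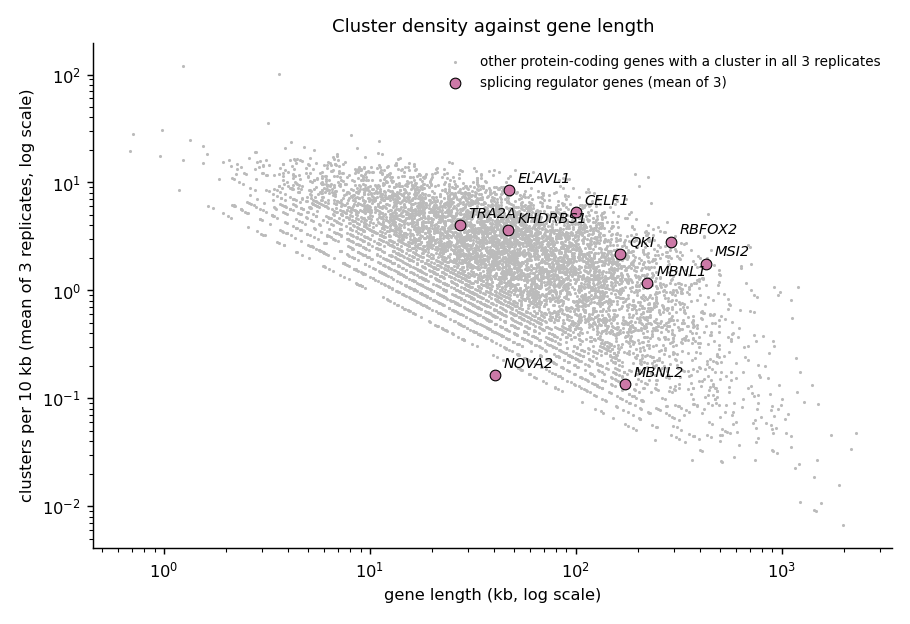
Clusters per 10 kb against gene length in kb, both on log scales, for the 10 genes (named points, means of 3 replicates) and all other protein-coding genes with a cluster in every replicate (grey). Density falls with length over the genes shown. A grey gene needs a cluster in every replicate, which keeps short genes from low densities. ELAVL1 (8.57) and CELF1 (5.32) lie above the median of protein-coding genes with a cluster in every replicate (2.01), and MBNL2 (0.135) lies below it. Ranks among genes of like length were not computed.

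The deposited annotation placed 335, 312 and 274 of the regulator clusters of replicates 1, 2 and 3 in introns. That was 88.9%, 90.2% and 88.4%, against 83.9%, 83.3% and 83.1% of the clusters in all other genes. The difference of 5.68 percentage points ± 1.03 (SD, n = 3) was larger than the spread and had the same sign in 3 of 3 replicates (exact two-sided sign-flip p = 0.25, the smallest that 3 replicates allow). Gene length moves with it: the median length was 132 kb over the 10 genes and 45.5 kb over 7786 other protein-coding genes with a cluster in every replicate, and its part in the difference was not tested. Without MSI2 the difference was 3.70, over 1.5 times smaller. The share is pooled over clusters, so genes with many clusters weigh most in it. By gene, the mean share over replicates was 31.6% in KHDRBS1 and 81.1% in CELF1, below the mean of 83.5% in all other genes. NOVA2 had no intron cluster. Every remaining gene lay above that mean, from 88.4% in TRA2A to 100% in MBNL2. This spread between genes is not measured by the SD over replicates.

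A further 58 clusters lay in 3′ UTRs, 6 in coding sequence and 5 in 5′ UTRs, and 31 carried the class processed transcript. The share in 3′ UTRs was 5.69% ± 1.51 in the regulator genes and 5.84% ± 0.408 in all other genes (SD, n = 3). CELF1 held the most 3′ UTR clusters, with 7, 8 and 5, and RBFOX2 had 3, 4 and 9. In CELF1 these clusters carried 157, 365 and 157 reads, or 23.7% ± 11.6 of the reads of the gene (SD, n = 3). Replicate 2 was the high one: 1 cluster there, chr11:47466592-47466646 in the last exon, had 181 reads from 106 distinct reads and overlapped no cluster of the other replicates.

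RBFOX2 (chr22:35738736-36028824, minus strand), which binds UGCAUG and directs exon choice in muscle, brain and epithelia, had 91, 89 and 67 clusters. Its intron 1, of 89.3 kb, is 31.6% of its intron length and held 49, 54 and 33 clusters. These were 59.1% of the clusters in its introns, at 5.07 ± 1.23 per 10 kb (SD, n = 3). The longer intron 2, of 129 kb, held 20, 18 and 15, at 1.37 ± 0.195 per 10 kb, so the replicates of the 2 introns did not overlap in density. The median RBFOX2 cluster lay at 19.1%, 17.7% and 33.0% of the gene from its 5′ end. Outside these introns, the intron 5 locus printed above gave the cluster with the most reads in replicates 2 and 3, with 45 and 39 reads. Replicate 1 had no cluster at this locus but had others in the intron. Intron 5 as a whole held 6, 7 and 1 clusters with 50, 91 and 39 reads.

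MSI2 (chr17:57255851-57684689, plus strand), a Musashi protein that controls translation and splicing in stem and progenitor cells, had 78, 81 and 69 clusters. Its clusters also crowded towards the 5′ end, with medians at 30.6%, 16.1% and 23.0% of the gene from that end. Intron 4, only 3.80 kb long, held 2, 9 and 7 clusters, or 15.8 ± 9.50 per 10 kb (SD, n = 3), with replicate 1 the low one. Among its 3 longest introns, intron 5 (139 kb) had 2.59 ± 0.449 per 10 kb, intron 6 (128 kb) had 1.30 ± 0.369, and intron 7 (67.1 kb) held 3 clusters, all in replicate 1. Farther 3′, intron 10 (24.8 kb) had 2.02 ± 0.699 and intron 11 (22.8 kb) 1.75 ± 0.438. The last intron, 13 (2.49 kb), held 3, 2 and 4 clusters, or 12.1 ± 4.02 per 10 kb. Density thus did not fall steadily along the gene. In replicate 2 the cluster with the most reads, 43, carried the class coding-intron and lay at intron 4.

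QKI (chr6:163414000-163578592, plus strand), a STAR-family protein of myelination and muscle that also promotes circular RNA formation, had 41, 34 and 32 clusters. Introns 3 (56.1 kb) and 4 (26.9 kb) held 51.5% and 23.3% of the clusters in its introns, at 3.15 ± 0.897 and 2.98 ± 0.985 per 10 kb, against 1.25 ± 0.434 in intron 1 (39.9 kb; SD, n = 3). The ranges of introns 3 and 4 overlapped, and both lay above that of intron 1. In replicate 1 a single intron 4 cluster held 71 of the 461 reads of the gene, while the leading clusters of replicates 2 and 3 held 23 and 24.

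MBNL1 (chr3:152243828-152465780, plus strand), a splicing regulator sequestered on CUG repeats in myotonic dystrophy, had 26, 29 and 23 clusters. Intron 2, of 115 kb, held 19, 25 and 12 of them, at 1.63 ± 0.568 per 10 kb. Intron 6, of 7.77 kb, held 2, 3 and 6, at 4.72 ± 2.68 per 10 kb, and intron 1, of 30.3 kb, held 2, 0 and 0 (SD, n = 3). MBNL1 was 1 of 2 genes with 2 loci found in all 3 replicates, both printed above: the intron 6 locus had 22, 30 and 7 reads, and the intron 2 locus had 16, 17 and 5. At both, replicate 3 was the low one.

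MBNL2 (chr13:97221434-97394120, plus strand), its paralog with a larger role in brain, had 2, 2 and 3 clusters with 24, 11 and 26 reads. All 7 were intronic, and none overlapped a cluster of another replicate. Per kb of gene it had 0.0849 normalised reads ± 0.0328 against 0.804 ± 0.175 in MBNL1 (SD, n = 3), and the replicates of the 2 genes did not overlap. With clusters of at least 3 distinct reads, MBNL2 no longer had a cluster in all 3 replicates.

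CELF1 (chr11:47465933-47565569, minus strand), which binds GU-rich sequences, directs splicing and promotes mRNA decay, had 64, 46 and 49 clusters. Intron 1, of 52.1 kb, held 32, 23 and 18, at 4.67 ± 1.36 per 10 kb, and intron 3, of 10.4 kb, held 13, 6 and 12, at 9.91 ± 3.63 (SD, n = 3). The short intron 2, of 1.26 kb, held 3, 3 and 4. Intron 3 gave the leading cluster in replicates 1 and 3, with 123 and 48 reads. The locus chr11:47497111-47497434 in that intron had 133 and 71 reads in replicates 1 and 2 and none in replicate 3, while the printed locus had 12, 15 and 59 reads. A further CELF1 locus, chr11:47499735-47499878, was found in all 3 replicates with 47, 11 and 22 reads. Unlike the printed locus it had bases covered in all 3 replicates, but it overlaps an annotated UTR and was not printed.

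ELAVL1 (chr19:7958573-8005659, minus strand), also called HuR, binds AU-rich and U-rich elements and stabilises mRNAs, and had 40, 37 and 44 clusters. Clusters lay in 4 of the 5 introns of ELAVL1. Intron 1 (13.7 kb) had 5.12 ± 0.732 clusters per 10 kb, intron 2 (10.5 kb) 10.2 ± 5.44, intron 3 (7.20 kb) 15.3 ± 1.39 and intron 4 (5.93 kb) 10.1 ± 1.69, while intron 5 (3.76 kb) held none (SD, n = 3). Intron 2 was the variable one, with 9, 6 and 17 clusters, and gave the leading cluster of each replicate, with 60, 76 and 130 reads at 3 separate places. Of the clusters named ELAVL1, 9 lay between 245 and 306 kb upstream of the gene's span in GENCODE, 6 of them inside another gene on the same strand. Without these 9 the density was 7.93 ± 0.884 per 10 kb, still above every other gene of the 10.

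**Figure D3:**
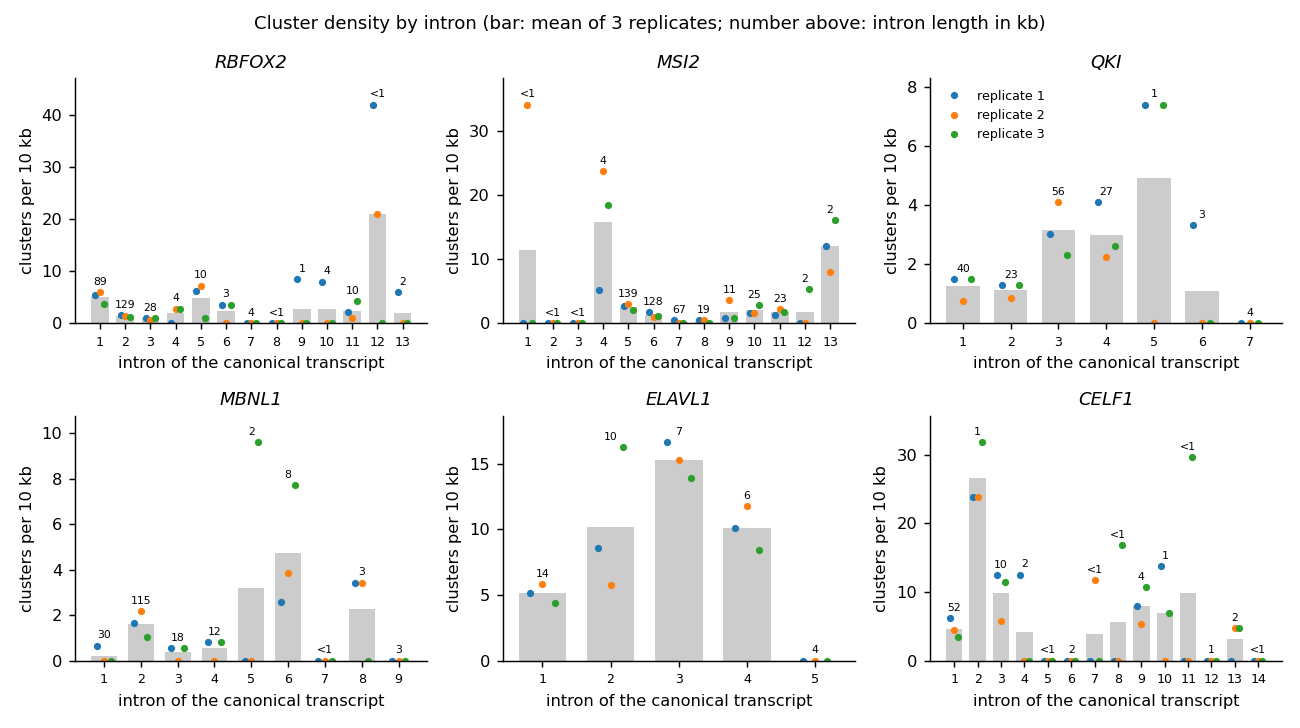
Clusters per 10 kb in each intron of the canonical transcript for 6 of the genes; bars are means, points the 3 replicates, and the number above an intron is its length in kb. RBFOX2 intron 1 (5.07) exceeds the longer intron 2 (1.37), MSI2 intron 5 (2.59) exceeds intron 7 (0.149), and ELAVL1 is dense in introns 1 to 4; introns of 1 kb or less rest on few clusters.

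KHDRBS1 (chr1:32013868-32060850, plus strand), also called Sam68, a STAR-family protein that links signalling to splicing, had 23, 17 and 11 clusters with 355, 300 and 152 reads. It differed from the other genes in where they lay: 12, 12 and 7 clusters carried the class processed transcript, and these were all 31 of that class among the 10 genes. Every one lay beyond the 3′ end of the canonical transcript, in the 17.0 kb up to the end of the gene, at 6.09 ± 1.70 per 10 kb (SD, n = 3), the first of them 1.37 kb past that end. They held 156, 152 and 61 reads. The other concentration was at the start of intron 1, where the leading clusters of replicates 1, 2 and 3, with 63, 108 and 56 reads, lay side by side between chr1:32014570-32014774 and chr1:32015229-32015319. The locus chr1:32014801-32015134 there, of which 70 nt are printed above, had 15, 108 and 11 reads.

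TRA2A (chr7:23504780-23532041, minus strand), a splicing activator that binds GAA-rich exonic elements, had 12, 10 and 11 clusters in the shortest gene of the 10. Intron 1, of 9.95 kb, held 7 clusters in each replicate, or 72.4% of the clusters in its introns against 39.1% of the intron length. Intron 2, of 5.18 kb, held none. The leading clusters of the 3 replicates were all in intron 1, with 23, 18 and 68 reads, at 3 different places.

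NOVA2 (chr19:45933734-45974044, minus strand), a splicing factor of neurons, had no cluster in replicate 1 and 1 each in replicates 2 and 3. Both lay in the 3′ UTR at different places and held 5 reads from 1 distinct read each. This is close to the minimum of 4 reads in the tables, so the level in NOVA2 was at the limit of detection.

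**Figure D4:**
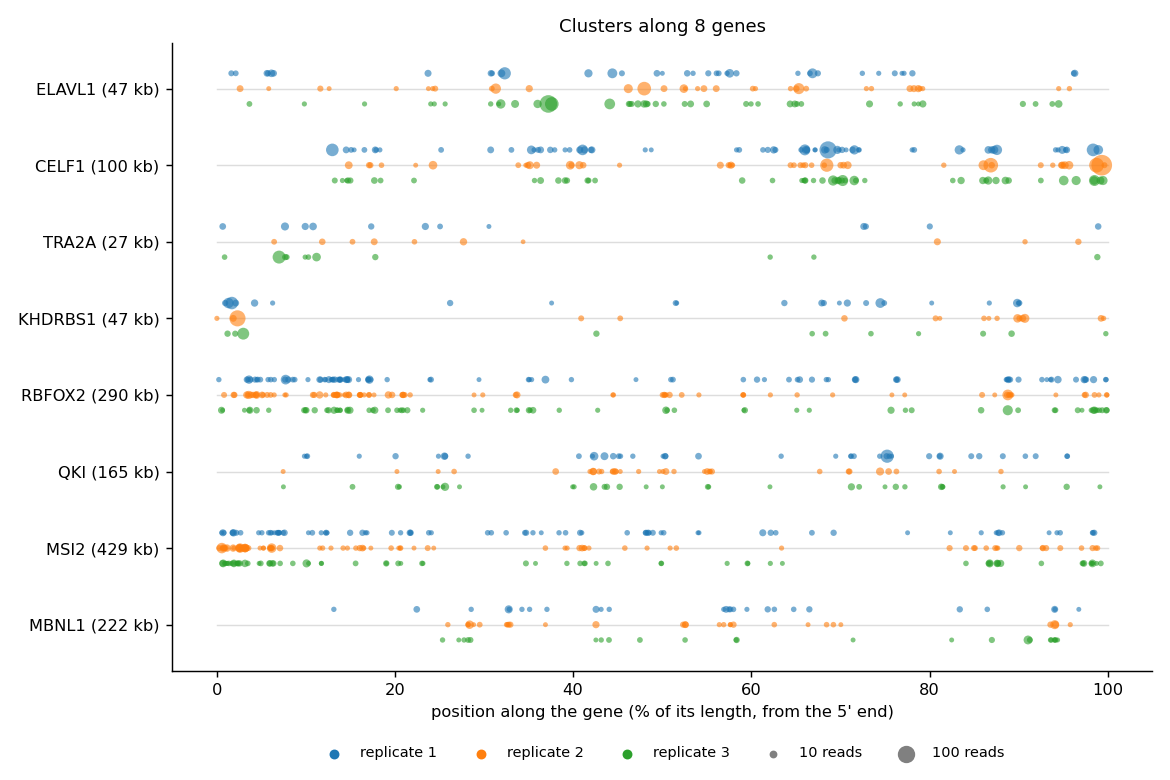
Clusters of 8 of the genes by position along the gene (percent of its length from the 5′ end), 1 row of points for each replicate and with point area by reads. RBFOX2 and MSI2 clusters crowd towards the 5′ end, TRA2A clusters in the first intron, and KHDRBS1 clusters at the start of intron 1 and in the last part of the gene.

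Single sites recurred rarely. The clusters of the 10 genes merged into 923 loci, of which 827 were found in 1 replicate, 90 in 2 and 6 in 3. Loci in at least 2 replicates were 10.4% here and 11.2% over all genes, and loci in 3 replicates were 0.650% here and 1.2% over all genes. The former share lay near the background and is no result about these genes; the latter rests on 6 loci. The 6 loci were 2 in MBNL1, 2 in CELF1, 1 in KHDRBS1 and 1 in TRA2A. RBFOX2 and MSI2, with 228 and 210 loci, had none in 3 replicates and 19 and 18 in 2.

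Counted as clusters, 185 of 921 intron clusters overlapped a cluster of another replicate and 14 overlapped both. By replicate these were 17.9%, 21.8% and 20.8%, against 21.2%, 21.0% and 22.4% in other genes. The difference of -1.37 percentage points ± 2.08 (SD, n = 3) was smaller than the spread (exact two-sided sign-flip p = 0.5, below 0 in 2 of 3 replicates). Its size depended on the clusters taken: it was -3.43 ± 2.18 for clusters with 3 or more distinct reads, below 0 in 3 of 3 replicates, and 0.374 without RBFOX2. Between genes the share was highest in KHDRBS1 (7 of 16 clusters) and was 36 of 112 in ELAVL1, 23 of 77 in MBNL1 and 29 of 129 in CELF1. It was 34 of 230 in RBFOX2, 34 of 219 in MSI2 and 14 of 102 in QKI. Density moved with this order in part: clusters of the other replicates covered 8.60% of ELAVL1 and 5.92% of CELF1 but 2.40% of RBFOX2 and 1.47% of MSI2. In MBNL1 they covered 0.939%. The part of density in the order was not tested.

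Crosslink signal and sequence were compared next. In intron clusters of the 10 genes 88.6%, 86.0% and 89.1% of reads carried T-to-C in replicates 1, 2 and 3, against 87.6%, 86.8% and 88.0% in other genes. The difference of 0.404 percentage points ± 1.07 (SD, n = 3) lay within the spread (exact two-sided sign-flip p = 0.5). Among the genes the share ran from 76.9% ± 4.12 in KHDRBS1 and 82.6% ± 0.397 in ELAVL1 to 92.3% ± 2.80 in MSI2, 92.5% ± 3.04 in MBNL1 and 94.4% ± 4.90 in MBNL2, the last from 7 clusters (SD, n = 3). Counted over clusters of every class, not of introns alone, KHDRBS1 and ELAVL1 had 15.6 and 14.9 reads per cluster, against 9.42 and 9.37 in MSI2 and MBNL1. The intron clusters of KHDRBS1, 8, 4 and 4 by replicate, held 171, 142 and 91 reads. CELF1 had the most reads per cluster, 18.2, but its T-to-C share of 83.9% ± 3.55 lay above those of KHDRBS1 and ELAVL1. Because every deposited cluster has at least 4 reads with T-to-C, small clusters must have a high share, and the part of this limit in the order of the genes was not tested.

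ATCTT occurred in 91 of the 921 intron clusters (9.88%) and in 9.69% of those in all other genes. Its rate was 2.21, 1.55 and 3.01 per 1000 nt in replicates 1, 2 and 3, against 2.26, 2.01 and 2.28 in other genes, a difference of 0.0741 ± 0.607 (SD, n = 3; exact two-sided sign-flip p = 1). RBFOX2 held 31 of the 91 clusters and had 3.44 ± 1.67 per 1000 nt, and MBNL1 held 12 and had 3.62 ± 0.909. ELAVL1, the densest gene, held 5 and had 0.772 ± 0.506. KHDRBS1 and MBNL2 held none, but they had only 16 and 7 intron clusters, too few to read an absence from. The replicates of MBNL1 and ELAVL1 did not overlap, the lowest of MBNL1 being 2.91 and the highest of ELAVL1 1.36 per 1000 nt.

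Pyrimidines made up 58.0%, 55.0% and 58.0% of the bases of intron clusters in the 10 genes and 57.9%, 56.5% and 58.0% in other genes, a difference of -0.490 ± 0.893 (SD, n = 3; exact two-sided sign-flip p = 0.75). For clusters with 3 or more distinct reads it was -0.914 ± 0.508, below 0 in 3 of 3 replicates. MBNL1 was at 62.3% and TRA2A at 48.2% ± 0.824, so that the clusters of TRA2A held more purines than pyrimidines.

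Pooled over the 10 genes, intron clusters lay farther from exons than those of other genes. Within 500 nt of an annotated exon of the same gene lay 14.3%, 16.0% and 22.6% in replicates 1, 2 and 3, against 23.2%, 24.4% and 25.0%. The difference of -6.55 percentage points ± 3.64 (SD, n = 3) was larger than the spread and below 0 in 3 of 3 replicates (exact two-sided sign-flip p = 0.25, the smallest possible). The median distance was 3116 nt in the 10 genes and 1824 nt in other genes. The genes were unlike one another: 10 of 16 intron clusters lay near an exon in KHDRBS1, 64 of 219 in MSI2 and 40 of 129 in CELF1, but 20 of 230 in RBFOX2. The shares in KHDRBS1, MSI2 and CELF1 lay above the mean of 24.2% in other genes. Every remaining gene with intron clusters lay below it. The SD over replicates does not measure this spread between genes. Without RBFOX2 the difference was -3.76 and without MSI2 -10.4, and gene length, which also differs between the sets, was not tested.

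**Figure D5:**
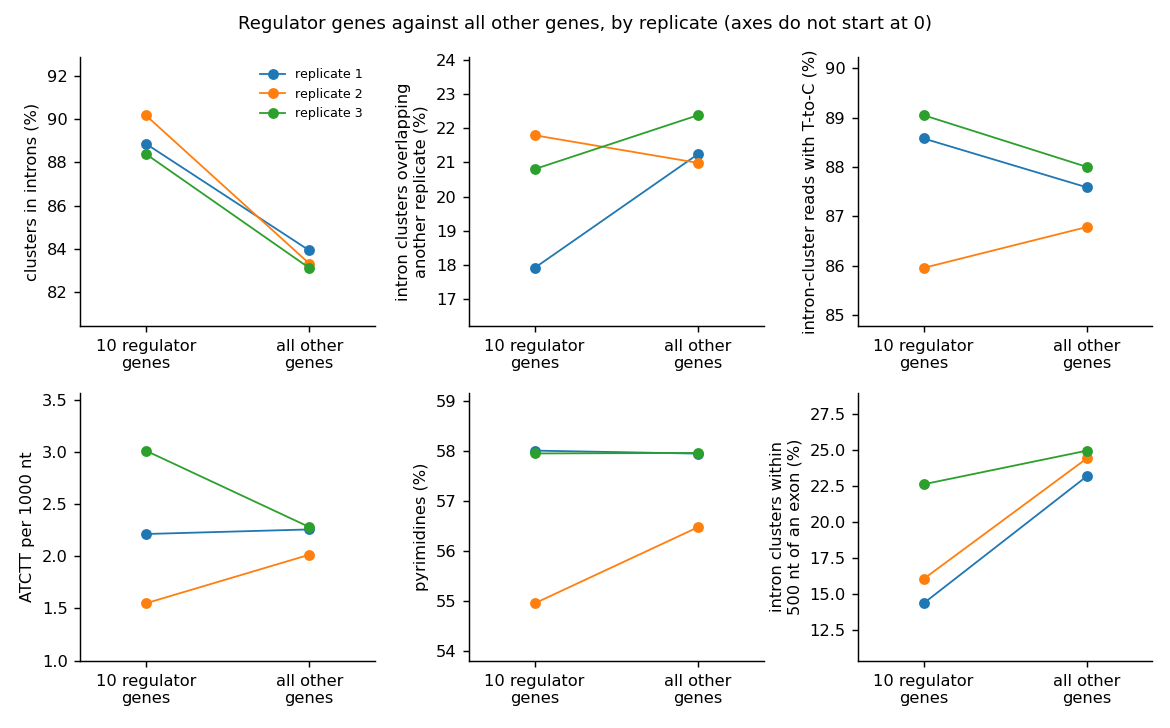
The 6 measures compared between the 10 regulator genes and all other genes, 1 line for each replicate; axes do not start at 0. All 3 lines run the same way for the intron share (88.4% to 90.2% against 83.1% to 83.9%) and for the share near an exon, and the lines of the other 4 measures differ in direction between replicates.

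A list of 16 paralogs of the 10 genes was read in the same way. Clusters were found in every replicate in 9 of them, in 2 replicates in 1 and in 1 replicate in 2, while RBFOX1, RBFOX3, CELF4 and ELAVL4 had none. Over all protein-coding genes 38.9% had a cluster in every replicate, and the count of 9 is not read as a result about the list. TRA2B, the paralog of TRA2A, had 23, 10 and 23 clusters and 9.59 normalised reads per kb, above TRA2A (4.02) in every replicate. MSI1 had 6, 13 and 7 clusters and 2.52 normalised reads per kb, above MSI2 (1.22) in every replicate. NOVA1, with 0.235, lay above NOVA2 (0.0616) likewise. MSI1 is 27.8 kb long and MSI2 428.8 kb, and the part of gene length in the order of these 2 genes was not tested. In the other families the gene of the 10 was the higher one: CELF1, at 6.96 normalised reads per kb, exceeded its highest paralog CELF6 at 1.25, ELAVL1, at 9.33, exceeded ELAVL2 at 0.316, and KHDRBS1, at 4.14, exceeded KHDRBS3 at 0.0804. MBNL3, at 0.189, lay between MBNL1 and MBNL2. Of 10 further tissue-restricted regulators, RBM38, RBPMS and RBPMS2 had clusters in every replicate, 3 had them in 1 replicate, and ESRP1, ESRP2, RBM24 and RBM47 had none. The share of 38.9% over all protein-coding genes stands beside this count too. RBM38 was the highest of the further regulators at 3.21 normalised reads per kb.

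Counted on both strands, the spans of the 10 genes held 1 cluster on the gene's strand without its name, in CELF1, and 1 on the opposite strand, in ELAVL1, with 9 reads. Almost all clusters in these spans thus lay on the annotated strand.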

How the data were processed

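MATR3 PAR-CLIP was compared across 3 biological replicates of wild-type HEK293 cells. The authors deposited 1 cluster table per replicate with read and event counts, an annotation class and a gene name, per the file headers, and the fraction of reads with T-to-C as a deposited value from 0 to 1. The build was hg38 per the submitters' processing notes; all 1033 member sequences equalled hg38. Aligner, cluster caller and annotation release are not given in the sources used here.

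Clusters were taken by gene name, and 87.2% to 87.7% of names per replicate matched GENCODE release 44, which gave spans, exons and canonical transcripts. Recurrence required an overlap of 1 nt on the same strand. The exact sign-flip test, two-sided and over 3 replicates (smallest p 0.25), was applied to 6 differences from other genes, which no adjustment can bring under 0.05. Scripts used Python 3.11.15, numpy 2.4.6 and pandas 2.3.3 and were checked on simulated data. Counts cover clusters only, and reads can be copies of 1 molecule.

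The members and lists were chosen with earlier results of these data known. Named were the 10 genes, the 16 paralogs, 10 further regulators, and for each member the 3-replicate locus and the cluster per replicate with the most reads; other loci were picked after their values were seen. Alternatives were minimums on distinct and total reads, weighting by reads, a 50% overlap, other exon distances, conversion per T, the share of clusters with ATCTT, at least 2 clusters per gene, and leaving out each replicate. Added after seeing the data were a 200 nt gap, clusters inside gene spans, and leaving out RBFOX2 or MSI2.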

Additional observations from a re-analysis of the deposited data

How the results depend on the processing

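Of 72 recomputed values of the main results, 60 kept their direction or size. The intron share (5.10 to 6.06 percentage points above other genes without 1 replicate) and the share near an exon (-8.65 to -5.38) kept their direction under every alternative run. The 4 measures whose difference lay within the replicate spread changed direction under some. The ATCTT difference was -0.229 per 1000 nt when at least 3 distinct reads were required, -0.139 when the replicate's median of reads was required and -0.254 without RBFOX2, and ran from -0.255 to 0.344 without 1 replicate. The recurrence difference was -3.43 ± 2.18 and -3.09 ± 0.612 under these 2 filters, below 0 in 3 of 3 replicates and beyond the spread, but 0.374 without RBFOX2, 0.105 without MSI2 and -3.54 to 0.102 without 1 replicate. The T-to-C difference was -0.533 without RBFOX2 and -0.613 without MSI2, and the pyrimidine difference was -0.914 ± 0.508 and -1.17 ± 0.530 under the filters, below 0 in 3 of 3 replicates, but ran from -0.765 to 0.0250 without 1 replicate. Cluster density over the 10 genes, 2.24 per 10 kb, was 1.45 and 1.28 under the same filters, as fewer clusters enter. The cause of the other changes was not tested. With at least 3 distinct reads 8 genes, not 9, had a cluster in all 3 replicates. The share of all protein-coding genes under this filter was not computed, so this count has no background to be read against.

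No paired analysis was possible because all libraries belong to 1 group and there is no second group to pair with; the differences from other genes were taken within each replicate. Clusters below 4 reads are not in the tables, so an absent site, as in NOVA2, is one not detected at this depth.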
